A study of Rattus norvegicus with 14 samples.

Results

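The potassium channel genes described here were all genes listed with a symbol that starts with Kcn, apart from Kcnj10, whose mean normalized count was at least 10 in the neuron or the astrocyte libraries. The normalized count is the number of reads estimated for a gene in a library after scaling between libraries. Of 91 such genes listed, 77 met this minimum, beside 15314 genes in all that met it in neurons and 15380 in astrocytes. Of the 77, 76 reached it in neurons and 53 in astrocytes, 52 reached it in both, 24 in neurons alone and Kcnj13 in astrocytes alone. The libraries came from primary cultures of the hippocampus of embryonic day 18 Sprague Dawley rats. All were kept in AM, a medium that serves as a model of aging (with less culture supplement for neurons and with charcoal-stripped serum for astrocytes), before vehicle (AM-Veh, 0.001% ethanol) or 100 nM of the neurosteroid allopregnanolone (AM-Allo) was added. Neurons, on day 10 in culture, had AM for 4 h and then 16 h of treatment, with 4 libraries in each group. Astrocytes, the cells left attached after mixed glial cultures were shaken to remove other glia, had AM for 24 h and then 24 h of treatment, with 3 libraries in each group. Neuron libraries carry numbers in 2 parts (1-1, 1-2, 2-1 and 2-2), and values below are given in that order. The labels say neither what the first part stands for nor that replicates are separate cultures, so p-values measure the spread between these samples.

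Potassium channels let potassium leave or enter the cell and so set the resting potential and the shape and rate of action potentials. Voltage-gated channels repolarize the membrane after depolarization, calcium- and sodium-activated channels open when these ions rise inside the cell, inward rectifiers and 2-pore channels hold the resting potential, and auxiliary subunits change the gating or surface level of the pore-forming ones. Allopregnanolone is best known for prolonging the opening of GABA-A receptors, and the study asked which genes and pathways it changed in cells of the hippocampus. By these roles the 77 genes comprised 35 voltage-gated, 7 calcium- or sodium-activated, 11 inward rectifier, 11 2-pore and 13 auxiliary genes.

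The size of 1 read, estimated from the spacing of low values, gave neuron libraries about 19800000 to 24900000 reads on genes and astrocyte libraries about 22200000 to 28400000, with 1 read worth 0.882 to 1.13 normalized counts in neurons and 0.846 to 1.07 in astrocytes. Markers of several cell types were present in both cultures. Neuron libraries held Map2, Tubb3 and Dcx, and beside them the astrocyte markers Gfap, Aqp4 and Slc1a3 and the oligodendrocyte-lineage markers Olig1 and Pdgfra, while 2 of the 6 microglial markers listed averaged at least 10, Cd68 with 102 and Tmem119 with 17.5, and Aif1 and Cx3cr1 averaged 2.88 and 2.16. Summed over the list, 8 astrocyte markers came to 191365 to 252263 normalized counts and 7 neuron markers to 59481 to 69934 per neuron library. Astrocyte libraries had 225237 to 239610 for the same 8 astrocyte markers, but they also held Col1a1 and Acta2, and the neuronal gene Stmn2 averaged 21769 beside 1.47 for Rbfox3 and 0.982 for Nefl. A level below belongs to the culture and cannot be placed in a cell type, and fewer cells of a type cannot be told apart from less RNA per cell.

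Within each class, the pair of genes with the most normalized counts is given for each culture. No transcript length was used, and a longer transcript yields more reads, so the order of different genes is not read as an order of expression. In neuron cultures, this pair of voltage-gated genes was Kcna2, a Shaker-type channel of axons, at 3540.4, 3836, 3496 and 3707 in AM-Veh, and Kcnd3, a pore of the A-type current, at 1993, 2263, 2280.2 and 2379. In astrocyte cultures, AM-Veh libraries had 1046, 1009.7 and 991 for Kcnd3 and 745, 695 and 756 for Kcnq5, a pore of the M-type current. Kcnd3 was thus given in both cultures. Among the calcium- or sodium-activated genes, Kcnt1, the sodium-activated channel Slack, had the most counts in both, with 1103, 1369, 1225 and 1398 in neuron AM-Veh libraries and 212, 249 and 255 in astrocyte AM-Veh libraries. It was followed by Kcnma1, the large-conductance BK channel, in neurons (759.9, 781, 655 and 622) and by Kcnn3, a small-conductance SK channel, in astrocytes (131, 118 and 137).

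For the inward rectifiers, the pair in neurons was Kcnj4, a strong rectifier, at 329, 278, 352 and 323, and Kcnj9, a G protein-gated (GIRK) subunit, at 280.5, 310.2, 251 and 300.0. In astrocytes it was Kcnj9 at 340.3, 278 and 334 and Kcnj14 at 96.8, 96.3 and 107. Of the 2-pore genes, those of neurons were the acid-sensitive Kcnk3 (552, 583, 610.2 and 731) and Kcnk10 (356, 394, 379.9 and 355), and those of astrocytes the mechanosensitive Kcnk2 (771, 846 and 830.3) and its relative Kcnk10 (687, 574 and 655). Of the auxiliary genes, Kcne5 had the most counts in both cultures, at 1284, 1377, 959 and 801 in neurons and 760.0, 873 and 942 in astrocytes. The neuron values of Kcne5 fell into a higher pair and a lower pair, which followed the first part of the library numbers. Kcnmb4, the neuronal beta subunit of BK channels, stood beside it in neurons (950.4, 868, 751 and 765), and Kcnab2, a beta subunit of Shaker channels, in astrocytes (153, 163 and 154).

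The tables of the cultures were scaled separately, so a gene's place was compared as its percentile of level among the genes listed in both. Kcnmb4 stood at the 68.6 percentile in neurons and the 17.9 percentile in astrocytes, with means of 840.4 and 11.4 normalized counts, and Kcna2 stood at 93.4 and 47.8. Both were among the 3 largest differences toward neurons. Kcnh7, Kcnj6, Kcnk15 and Kcnk9 were listed at 0 in every astrocyte library and averaged 107, 82.2, 123 and 164 in neurons. The 3 largest differences toward astrocytes were those of Kcns1, a silent subunit that modifies other voltage-gated channels (18.5 and 53.3 percentile), Kcnk2 (39.1 and 69) and Kcnj13, an inward rectifier of epithelia (12.2 and 31.6). Kcns1 was at 374, 399 and 388 in astrocyte AM-Veh libraries and at 16.4, 9.52, 10.3 and 15.04 in neuron AM-Veh libraries. Kcnj13 overlaps the span of Gigyf2 in the RefSeq annotation, as do Kcnh7 that of Gca and Kcnk15 that of Rims4. The same holds for Kcnab2 with Nphp4 and for Kcnk2 with LOC120096345. Whether the counting used strand is not given in the sources used here, so these values are uncertain.

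**Figure D1:**
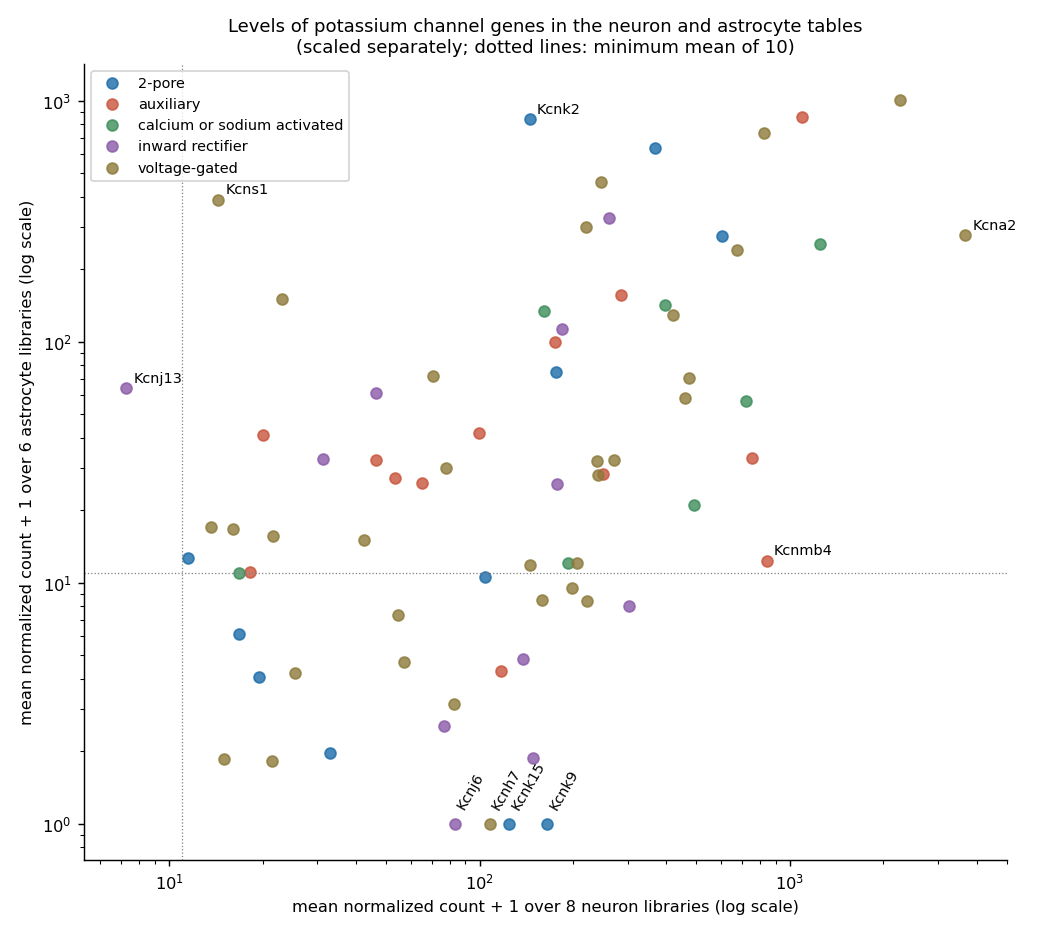
Mean normalized count plus 1 of the potassium channel genes reported here over 8 neuron libraries (x axis) and 6 astrocyte libraries (y axis), both on log scales, coloured by class, with dotted lines at the minimum mean of 10. Kcnmb4 and Kcna2 lie toward the lower right, Kcns1, Kcnk2 and Kcnj13 toward the upper left, and Kcnh7, Kcnj6, Kcnk15 and Kcnk9 on the floor of the astrocyte axis.

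At the edge of the minimum, Kcnk18 and Kcnh5 had means of 10.4 and 12.7 in neurons, just inside it, and Kcne4 and Kcnh6 had 7.34 and 6.68, just outside. In astrocytes Kcnmb3 and Kcna4 had 10.1 and 10.9, and Kcnn4 and Kcnk12 had 9.99 and 9.54. Values this low rest on about 10 reads per library.

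To see which potassium channel genes differed after allopregnanolone, AM-Allo was compared with AM-Veh within each culture. In neurons, Kcnn1, a small-conductance calcium-activated (SK) channel, and Kcnf1, a silent subunit that modifies other voltage-gated channels, were lower with Allo, at 0.649 and 0.697 times their AM-Veh level on the log2(normalized count + 1) scale of the test. At an unadjusted p under 0.05 in limma, the threshold of the study, 8 of 76 genes differed, 3 higher and 5 lower, which is 10.5% of them beside 5.69% of all genes tested (3.21% higher and 2.48% lower). None passed after Benjamini-Hochberg adjustment over all genes in limma, beside 0.0261% of all genes. The log2 differences lay above 0 for 38 genes and below 0 for 38, with a median of 0.0017 beside −0.0015 over all genes, and 64 of the 76 were smaller than 0.25 in size. In size alone their median was 0.11 on the log2 scale, beside 0.054 over all genes. This was not particular to Allo in neurons. The medians were 0.098 beside 0.062 for Allo in astrocytes and 0.145 beside 0.088 between neuron libraries numbered 1 and 2. All genes were not matched to these in level. At a minimum mean of 50 the medians were 0.091 beside 0.046 for Allo in neurons and 0.058 beside 0.052 in astrocytes. Between library numbers they were then 0.125 beside 0.077. In the deposited variance-stabilized values they were 0.034 beside 0.027 for Allo in neurons and 0.022 beside 0.024 in astrocytes. AM-Allo and AM-Veh libraries did not overlap for 4 genes, Kcne2 higher and Kcnn1, Kcnf1 and Kcnj9 lower, which is 5.26% beside 3.95% of all genes tested (2.06% higher and 1.89% lower). The 4 libraries against 4 allow an exact permutation p of 0.0286 at the smallest. Libraries without overlap always give this value, so it adds nothing to the lack of overlap. The permutation also took no account of the library numbers.

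**Figure D2:**
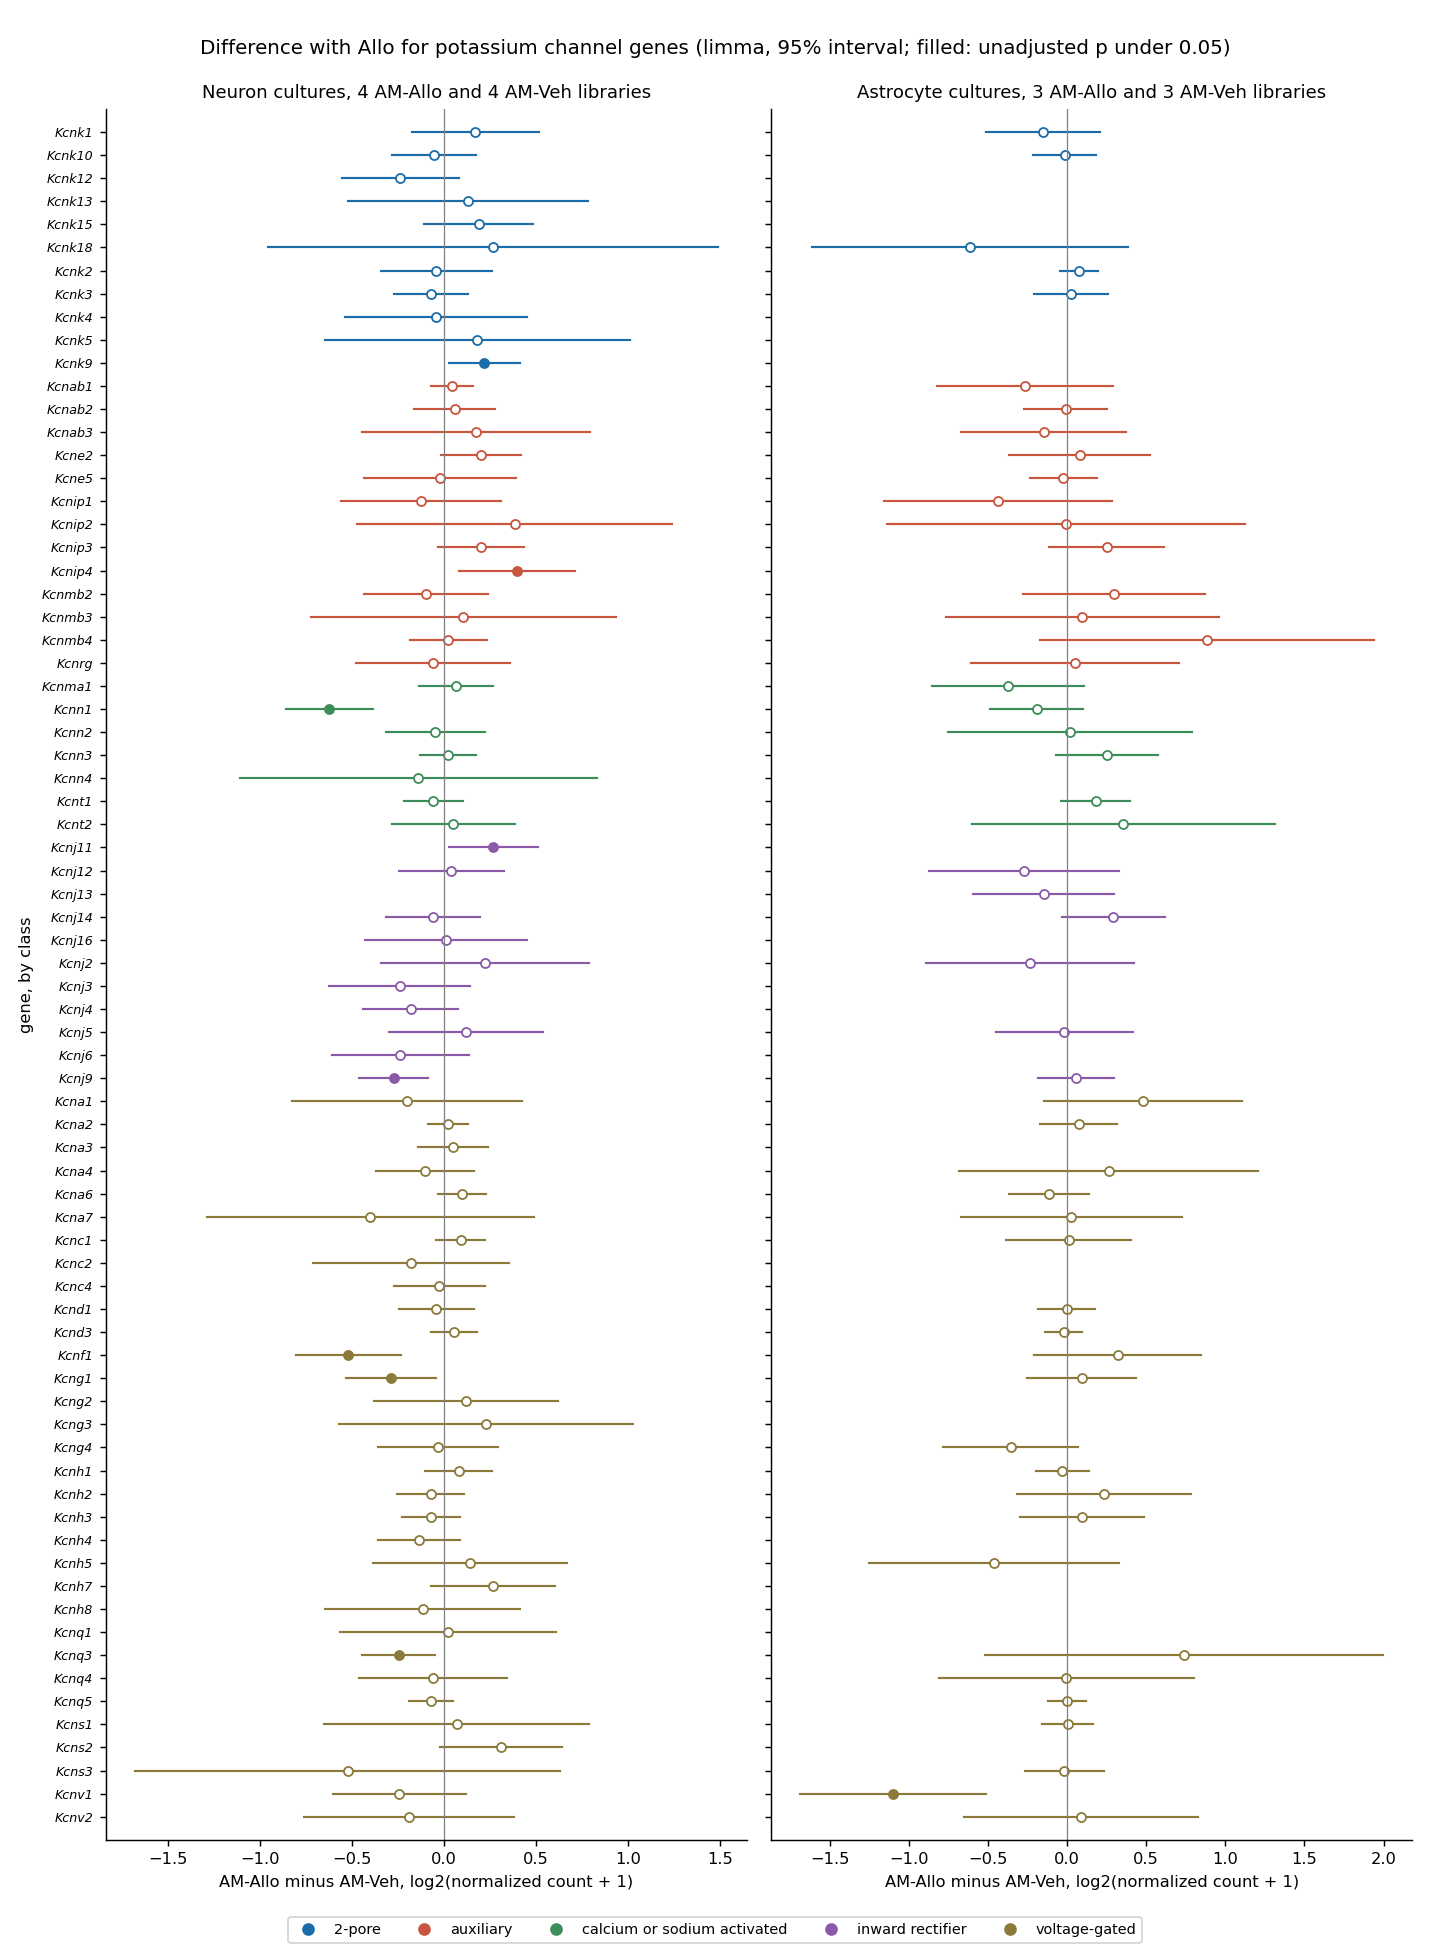
Difference between AM-Allo and AM-Veh in log2(normalized count + 1) for the potassium channel genes reported here, by class (colour), in neuron cultures (left) and astrocyte cultures (right). Circles are limma estimates with 95% intervals and are filled at an unadjusted p under 0.05, which holds for 8 genes on the left and for Kcnv1 on the right.

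Among the calcium- or sodium-activated genes, 1 of 7 differed at an unadjusted p under 0.05 (14.3% beside 5.69% of all genes). Kcnn1, a member of the SK family of calcium-activated channels, was at 209.6, 194, 188 and 183 in AM-Veh and at 149, 113, 129.8 and 113 in AM-Allo. Every AM-Allo library lay below every AM-Veh library (exact permutation p = 0.0286, two-sided, the value that any such lack of overlap gives). The means were 194 ± 11.6 and 126 ± 17.1 (SD, n = 4), a log2 difference of −0.62 (SE 0.11, 95% interval −0.86 to −0.38). The unadjusted p was 0.000148 and the adjusted p in limma 0.195. The log2 difference was −0.63 within libraries numbered 1 and −0.61 within those numbered 2. The first part of the replicate number groups the neuron libraries. With the whole number as a block the adjusted p of Kcnn1 in limma was 0.0126 (0.0124 with its first part alone). The related SK genes Kcnn2 and Kcnn3 had log2 differences of −0.05 and 0.02, and the BK channel gene Kcnma1 had 0.06.

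Among the 35 voltage-gated genes, 3 differed at an unadjusted p under 0.05 (8.57% beside 5.69% of all genes), all of them lower with Allo. Kcnf1 makes a subunit that forms no channel alone and joins pore-forming subunits. Its AM-Veh libraries had 286, 279.9, 289 and 259 and its AM-Allo libraries 169, 159, 244 and 214. The AM-Veh values stood close together, while the AM-Allo values were lower in the libraries numbered 1 than in those numbered 2. The log2 difference was −0.52 (SE 0.13, 95% interval −0.80 to −0.24, unadjusted p = 0.00208, adjusted p = 0.457 in limma), made up of −0.78 within libraries numbered 1 and −0.26 within those numbered 2. With the number as a block the adjusted p was 0.0487 (0.033 with its first part). Kcng1, another silent subunit, was at 518, 463, 464 and 391 in AM-Veh and 402, 418, 379 and 306 in AM-Allo. Its groups overlapped, with the lowest AM-Veh library below 2 of the AM-Allo libraries, and its log2 difference was −0.29 (95% interval −0.53 to −0.05, unadjusted p = 0.0243). Kcnq3, a subunit of the channels of the M current, was at 226, 239, 201 and 225 in AM-Veh and 178, 179, 213 and 180.4 in AM-Allo. Of its AM-Allo libraries, 2-1 reached into the AM-Veh range, and the log2 difference was −0.25 (95% interval −0.45 to −0.05, unadjusted p = 0.019). Its relative Kcnq5 had a log2 difference of −0.07.

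The silent subunits were looked at as a group only after these values had been seen, and carry no test. Of their 10 genes (Kcnf1, Kcng1 to Kcng4, Kcns1 to Kcns3, Kcnv1 and Kcnv2), 6 had a log2 difference below 0 in neurons, with a median of −0.11 and a range of −0.52 to 0.31. Over the voltage-gated genes that did not pass, the log2 differences ranged from −0.52 for Kcns3 (mean 22.1, interval −1.68 to 0.63) to 0.31 for Kcns2 (interval −0.02 to 0.64).

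Of 10 inward rectifier genes tested, Kcnj9 was lower and Kcnj11 higher at an unadjusted p under 0.05 (20% beside 5.69% of all genes). Kcnj9, a GIRK subunit that opens on G protein beta-gamma subunits, had 280.5, 310.2, 251 and 300.0 in AM-Veh and 250.2, 246, 219.7 and 227 in AM-Allo. The groups did not overlap, though the third AM-Veh and the first AM-Allo library were less than 1 normalized count apart. The log2 difference was −0.27 (SE 0.085, 95% interval −0.46 to −0.09, unadjusted p = 0.0086, adjusted p = 0.652 in limma), with −0.25 and −0.30 within libraries numbered 1 and 2. The other GIRK genes Kcnj3, Kcnj6 and Kcnj5 had log2 differences of −0.24, −0.24 and 0.12, with intervals of −0.62 to 0.14, −0.61 to 0.13 and −0.30 to 0.53 that include 0. Kcnj9 overlaps the span of Igsf8 in the RefSeq annotation, so its value is uncertain. Kcnj11, the pore of ATP-sensitive channels, was at 115, 128, 155 and 139 in AM-Veh and 165, 145, 170.1 and 164 in AM-Allo. The AM-Veh library 2-1 lay above the AM-Allo library 1-2, and the log2 difference was 0.27 (95% interval 0.02 to 0.51, unadjusted p = 0.0337). Abcc8, its regulatory sulfonylurea receptor, had 0.03.

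Among 11 2-pore genes, 1 differed at an unadjusted p under 0.05 (9.09% beside 5.69% of all genes). Kcnk9, an acid-sensitive background channel, was higher, at 157, 153, 147 and 148 in AM-Veh and 156, 186, 176 and 187 in AM-Allo. The groups met at the AM-Allo library 1-1, just below the highest AM-Veh library, and the log2 difference was 0.22 (95% interval 0.03 to 0.41, unadjusted p = 0.03). Its close relatives Kcnk3 and Kcnk15 had −0.07 and 0.19.

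Of 13 auxiliary genes, 1 differed at an unadjusted p under 0.05 (7.69% beside 5.69% of all genes). Kcnip4, a calcium-binding partner of the A-type Kcnd channels, was higher. It stood at 108, 80.99, 91.3 and 121 in AM-Veh and 126, 136, 149 and 114 in AM-Allo. The AM-Veh library 2-2 lay above the AM-Allo library 2-2, and the log2 difference was 0.39 (95% interval 0.08 to 0.71, unadjusted p = 0.0191). The other partners of this kind, Kcnip1, Kcnip2 and Kcnip3, had −0.12, 0.38 and 0.20, and none of these passed the test. Kcne2, a small subunit that joins several voltage-gated channels, was at 86.4, 96.8, 92.8 and 91.9 in AM-Veh and 97.6, 105, 108 and 113 in AM-Allo. Its libraries did not overlap (exact permutation p = 0.0286, two-sided), but the difference of 0.20 had an interval of −0.02 to 0.42 in limma (unadjusted p = 0.0703).

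**Figure D3:**
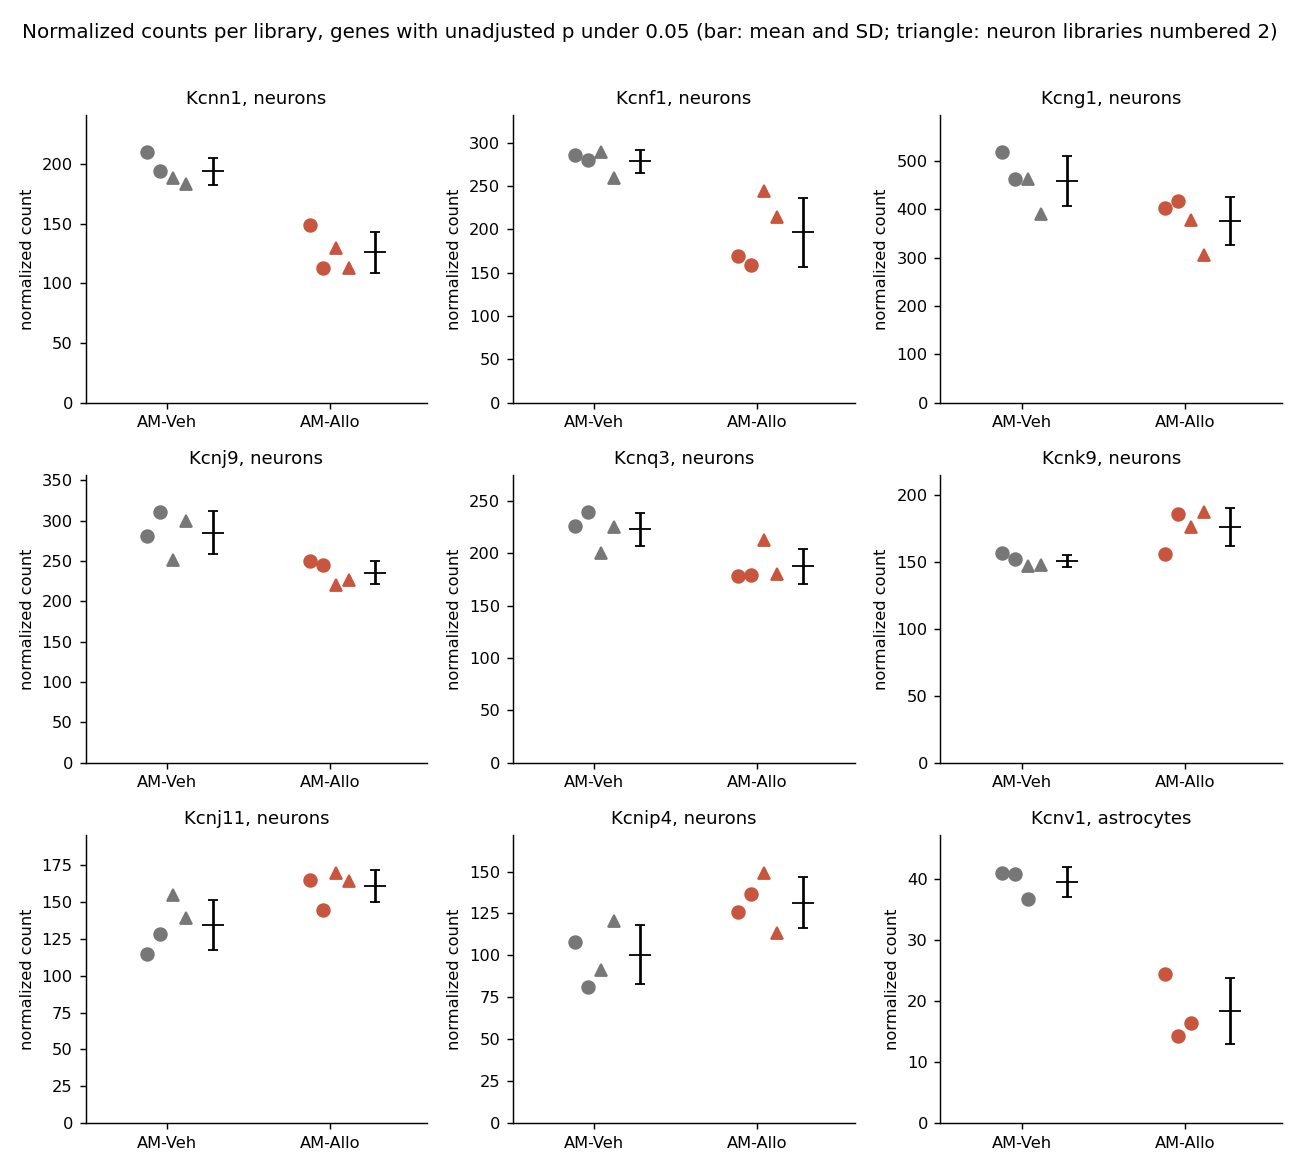
Normalized count in every library for the 8 neuron genes and the astrocyte gene Kcnv1 with an unadjusted p under 0.05, AM-Veh in grey and AM-Allo in red, with mean and SD beside the points. Triangles mark neuron libraries numbered 2. Kcnn1, Kcnf1, Kcnj9 and Kcnv1 show no overlap between the groups, and each y axis starts at 0.

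Values of 3 neuron markers were also higher with Allo at an unadjusted p under 0.05 (Map2, Tubb3 and Dcx) and that of Nefl was lower, out of 7 listed. Their sum ranged over 59481 to 65545 in AM-Veh and 63625 to 69934 in AM-Allo, and none of 8 astrocyte or 8 oligodendrocyte-lineage markers differed at that threshold. The part of these in the potassium channel results was not tested. With the whole replicate number as a block, 10 of 76 genes passed an unadjusted p under 0.05, beside 10.7% of all genes. They were the same 8 together with Kcnj4 (lower) and 1 further gene, and Kcnn1 and Kcnf1 passed after adjustment, beside 0.607% of all genes. With the first part of the number as the block, the same 10 and the same pair passed, beside 11% and 0.679% of all genes. In the deposited VST values (variance-stabilized), 13 passed an unadjusted p under 0.05 and 2 after adjustment, beside 14.4% and 1.03% of all genes. Differences were smaller on that scale. All 76 were under 0.25 in size, beside 64 in the main fit, and Kcnf1 had −0.21 beside −0.52. Without AM-Allo library 2-2, 5 genes passed the unadjusted threshold, beside 5% of all genes.

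Promoter sequences were examined for the genes that moved. RefSeq (GRCr8) gave one for 49 of the 77 genes and, among the 9 that passed the unadjusted threshold, for Kcnf1 and Kcnj9, which are printed as the 250 bases before the start of the gene, in the direction of transcription. Kcnf1 has chr6:45693707-45693956 on the minus strand and Kcnj9 chr13:87320294-87320543 on the minus strand. Capitals mark a match to the MEF2 consensus, a motif added after the sequence had been seen.
Kcnf1: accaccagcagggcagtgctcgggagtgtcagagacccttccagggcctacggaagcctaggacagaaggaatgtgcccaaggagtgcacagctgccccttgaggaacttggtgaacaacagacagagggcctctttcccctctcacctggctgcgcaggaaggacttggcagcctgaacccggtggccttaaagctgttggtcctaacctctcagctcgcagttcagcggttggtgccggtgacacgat
Kcnj9: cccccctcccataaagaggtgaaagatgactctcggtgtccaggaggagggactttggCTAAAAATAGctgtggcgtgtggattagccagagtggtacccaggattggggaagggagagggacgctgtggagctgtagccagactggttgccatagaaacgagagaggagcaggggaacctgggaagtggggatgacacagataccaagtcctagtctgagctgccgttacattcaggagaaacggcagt
The letters searched, on both strands, were the CRE TGACGTCA and the TGACG it contains, the AP-1 site TGACTCA, the GC box GGGCGG, the TATA box TATAAA and MEF2. Neither sequence held any but the MEF2 match of Kcnj9, which 2.96% of all 33469 RefSeq promoters of this length hold. Of the 49 potassium channel genes with a promoter, 26 had a GC box in at least 1 of them, and 51.9% of their 54 promoters held it beside 30.5% of all. TGACG was in 16.7% of the 54 beside 18.2% of all, the TATA box in 1.85% beside 12.9%, and the CRE and the AP-1 site in none beside 1.59% and 4.05%. The median GC content was 62% in these promoters and 51.2% in all.

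Genes whose products work with potassium channels, but whose symbols do not start with Kcn, were read from the same fits. Of 27 listed, 24 were tested in neurons, and 6 passed an unadjusted p under 0.05, 4 higher and 2 lower, which is 25% beside 5.69% of all genes. The list was chosen with earlier results of these data known, so its share cannot be read as an excess. None passed after adjustment in the main limma fit. In limma on the VST values Dpp6 did (adjusted p = 0.0421). The difference by library number is absent from those values, and that fit has no term for it. On the normalized counts with a block, the adjusted p of Dpp6 in limma was 0.0654 (whole number) and 0.0562 (first part). Dpp6, an A-type channel partner like Kcnip4, was at 2967, 2658, 2436 and 2287 in AM-Veh and 3019, 3054, 2833 and 2771 in AM-Allo, a log2 difference of 0.18 (unadjusted p = 0.0303). Dpp10, listed with Dpp6, had 0.04 and did not pass. The other 3 higher genes came from a list of genes that cluster or anchor Shaker-type channels. The rest of that list tested did not pass. Dlg2, Akap5 and Dlg4 had 0.12, 0.07 and 0.01, and Dlg1, Adam23 and Lgi1 had −0.004, −0.01 and −0.13. Cntn2, an adhesion protein of the juxtaparanode, had 276, 263, 271 and 237 in AM-Veh and 319, 279, 363 and 347 in AM-Allo, without overlap, a log2 difference of 0.31 (unadjusted p = 0.00629). Ank3, which anchors channels at the axon initial segment, differed by 0.14 and Adam22, a receptor of Lgi1 found with Shaker-type channels, by 0.11 (unadjusted p = 0.0141 and 0.0463), and neither overlapped between the groups. With the whole number as a block the unadjusted p of Adam22 was 0.0654. The lower ones were hyperpolarization-activated cation channels, which pass potassium and sodium. Hcn4 was at 458, 382, 337 and 367 in AM-Veh and 326, 282, 355 and 276 in AM-Allo (log2 difference −0.31, unadjusted p = 0.0156), and Hcn3 differed by −0.15 without overlap (unadjusted p = 0.0206). Hcn2 had −0.08 and did not pass, though its libraries did not overlap. Without AM-Allo library 1-2, 3 of the 24 passed, beside 6.1% of all genes.

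In astrocyte cultures, Kcnv1 was the only potassium channel gene to differ at an unadjusted p under 0.05, 1 of 53 tested or 1.89%, beside 7.01% of all genes (3.72% higher and 3.29% lower). None passed after adjustment in limma, beside 0.0065% of all genes. Kcnv1 makes a silent subunit like that of Kcnf1. It was at 41.1, 40.9 and 36.7 in AM-Veh and 24.5, 14.3 and 16.4 in AM-Allo, with every AM-Allo library below every AM-Veh library. The means were 39.6 ± 2.45 and 18.4 ± 5.39 (SD, n = 3), a log2 difference of −1.10 (SE 0.27, 95% interval −1.69 to −0.51), on few reads per library. The unadjusted p was 0.00142 and the adjusted p in limma 0.335. The 7 neuron markers of the same libraries summed to 25525 to 26303 in AM-Veh and 24758 to 26005 in AM-Allo, and Map2 and Dcx among them were lower at an unadjusted p under 0.05. The astrocyte markers Slc1a2 and S100b (2 of 8), the microglial Cx3cr1 (1 of 7) and the mural Rgs5 (1 of 5 tested) were lower too. The other markers tested in these lists lay on both sides of 0 and did not pass. Their part in the result was not tested. In neurons Kcnv1 was at 90.3, 94.1, 86.3 and 63.8 in AM-Veh and 59.3, 74.9, 83.7 and 63.6 in AM-Allo, a log2 difference of −0.24 with an interval of −0.60 to 0.12. Whether the cultures differ in this was not tested, since their tables were scaled separately.

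AM-Allo and AM-Veh astrocyte libraries did not overlap for 3 of the 53 genes, or 5.66%, beside 12.5% of all genes tested (6.42% higher and 6.07% lower). An exact permutation test of 3 libraries against 3 cannot go below 0.1. Besides Kcnv1, these were Kcnt1, at 212, 249 and 255 in AM-Veh and 258, 265 and 288 in AM-Allo (log2 difference 0.18, interval −0.04 to 0.40), and Kcna1, at 24.4, 14.9 and 29.6 in AM-Veh and 33.3, 30.7 and 29.7 in AM-Allo (0.48, interval −0.15 to 1.11). The AM-Veh and AM-Allo values of Kcna1 were less than 1 normalized count apart at their nearest. The log2 differences were above 0 for 26 genes and below 0 for 27, with a median of −0.00087 beside 0.0014 over all genes, and 35 of the 53 were smaller than 0.25. Among the astrocyte genes given above for their level, the log2 differences were −0.02 for Kcnd3, −0.02 for Kcne5 and 0.08 for Kcnk2, none of which passed the test. Kcnmb4 had 0.88, with an interval of −0.17 to 1.94 that includes 0. Of the 5 genes lower in neurons, Kcnn1 and Kcnf1 had −0.19 (interval −0.48 to 0.10) and 0.32 (interval −0.21 to 0.84) in astrocytes. Kcnf1 averaged 31.2 there. Kcng1, also lower in neurons, had 0.09 (interval −0.25 to 0.44) in astrocytes. Of the associated genes, 22 were tested in astrocytes, and none passed an unadjusted p under 0.05 or adjustment in limma. Without AM-Allo 1, 2 or 3, 4 potassium channel genes passed the unadjusted threshold each time, beside 8.32%, 7.06% and 6.65% of all genes. Without AM-Veh 2 it was 3, beside 5.68%, and without AM-Veh 3 it was 2, beside 6.46%. With the replicate number as a block Kcnv1 alone passed, beside 7.17%, and at a minimum mean of 50, which leaves Kcnv1 out, none passed, beside 7.07%.

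The neuron libraries were also compared by the first part of their numbers, with treatment as a term, to describe how these genes varied beside the treatment. Libraries numbered 1 differed from those numbered 2 in far more potassium channel genes than AM-Allo from AM-Veh. After adjustment 17 of 76 passed, 8 higher and 9 lower in libraries numbered 1, which is 22.4% beside 17.2% of all genes tested (7.61% higher and 9.61% lower), and 23 passed an unadjusted p under 0.05, 11 higher and 12 lower, or 30.3% beside 29.3% (14.1% higher and 15.3% lower). Under quantile normalization 17 also passed after adjustment, 10 higher and 7 lower, beside 17.6% of all genes. The libraries did not overlap for 15 genes, 9 higher and 6 lower, or 19.7% beside 19.6% (9.47% higher and 10.2% lower). These shares are close to those of all genes. The deposited neuron VST values hold no such difference for any gene, so these rest on the normalized counts alone.

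Among the genes that passed after adjustment, the largest difference was that of Kcns3, a silent subunit. It was at 19.1, 13.99, 12.1 and 5.003 in libraries numbered 1 (the AM-Veh pair first) and at 32.1, 32.8, 28.96 and 32.6 in those numbered 2, a log2 difference of −1.39 (SE 0.30, adjusted p = 0.00403 in limma), with no overlap. Kcnip2, a Kcnd partner, stood at 26.00, 30.6, 30.1 and 60.8 in libraries numbered 1 against 58.4, 64.2, 47.2 and 102, with an overlap through the AM-Allo library 1-2 (−0.89, adjusted p = 0.0235). Kcng3, another silent subunit, stood at 10.9, 14.8, 11.3 and 20.01 in libraries numbered 1 against 26.2, 22.5, 32.7 and 25.2, without overlap (−0.88, adjusted p = 0.0258). Kcna1, a Shaker-type channel, differed by −0.83, from 192, 202, 163 and 135 to 343, 272, 292 and 319 (adjusted p = 5.8e-05), while its neighbour on the chromosome, Kcna6, differed by 0.01. Kcnc2, Kcnt2, Kcnj4, Kcnk3 and Kcnd3 were lower as well, with log2 differences of −0.54 to −0.13.

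On the other side, Kcne5 was at 1284, 1377, 1256 and 1314 in libraries numbered 1 and 959, 801, 895 and 866 in those numbered 2, a log2 difference of 0.57 (SE 0.052, adjusted p = 1.9e-06 in limma). Kcnip1 had 331, 301, 291 and 269 in libraries numbered 1 against 200.4, 211, 221 and 173 (0.56, adjusted p = 0.000323). Its span overlaps that of Kcnmb1 (mean 0.982 in neurons) in the RefSeq annotation, so its value is uncertain. Kcnk1, a weakly rectifying 2-pore channel, had 203, 184, 206 and 196 in libraries numbered 1 against 162, 118, 172 and 165 (0.36, adjusted p = 0.0263). For all 3, the libraries numbered 1 and 2 did not overlap in their values. The BK channel gene Kcnma1 differed by 0.26, its beta subunit Kcnmb4 by 0.23, and the SK channel gene Kcnn2 by 0.34, and Kcnj12 and Kcnk2 were higher by 0.29 and 0.32. Of the 7 calcium- or sodium-activated genes, 3 passed after adjustment (42.9% beside 17.2% of all genes), Kcnma1 and Kcnn2 higher and Kcnt2 lower. Kcnn1 and Kcnf1, both among the genes lower with Allo, had 0.11 (adjusted p = 0.527) and −0.21 (adjusted p = 0.185) in this comparison. Other cell type markers moved with it too. The 8 astrocyte markers summed to 191365 to 203366 in libraries numbered 1 and 229699 to 252263 in those numbered 2, and the 8 oligodendrocyte-lineage markers to 42276 to 45308 and 38365 to 39078. The mesenchymal and mural markers summed to 934 to 2257 and 668 to 773, the endothelial ones to 50.4 to 57.9 and 77.3 to 128, and the microglial ones to 92.6 to 112 and 158 to 165, none of these 5 sums overlapping. The neuron markers summed to 61510 to 65638 and 59481 to 69934, which overlap. A sum follows its most abundant genes, and single markers did not all move with their list. Of 8 astrocyte markers, 1 was higher and 4 were lower in libraries numbered 1 after adjustment. For the 8 oligodendrocyte-lineage markers it was 5 higher and 1 lower, and for 6 mesenchymal and mural markers tested 3 higher and 1 lower. Their part in these differences was not tested.

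**Figure D4:**
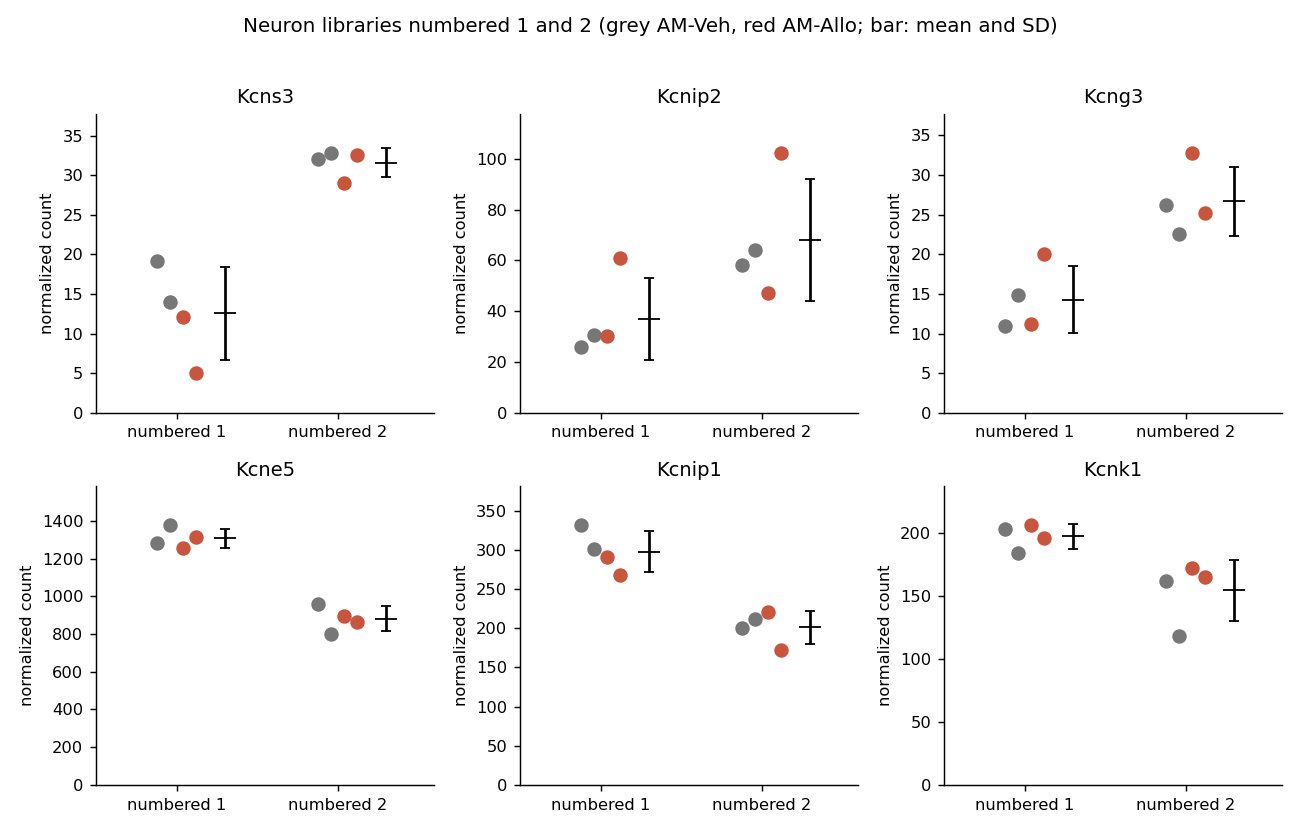
Normalized count in each neuron library of the 3 potassium channel genes with the largest difference in each direction among those that passed after adjustment between libraries numbered 1 and 2, AM-Veh in grey and AM-Allo in red, with mean and SD. Kcns3, Kcnip2 and Kcng3 are higher in libraries numbered 2, and Kcne5, Kcnip1 and Kcnk1 in those numbered 1.

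Without AM-Allo library 2-2, 9 genes passed after adjustment, beside 12.8% of all genes, and without AM-Allo library 1-1, 10 passed, beside 12.6%. Without the variance trend 8 passed, beside 11.2%, and among AM-Veh libraries alone 7 passed, beside 6.98%.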

How the data were processed

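RNA was measured by poly(A)-selected, stranded, paired-end RNA-seq in 8 neuron and 6 astrocyte libraries, grouped by the cell type, treatment and number in their labels. Per the labels, the authors quantified transcripts with Salmon 0.14 and normalized gene counts with DESeq2 1.18.1. They deposited, for each culture, this normalized signal and log2-like variance-stabilized (VST) values. In the neuron VST values the means of libraries numbered 1 and 2 were equal for each of 18239 genes within 1e-06, so that difference had been removed from them, and what removed it is not given in the sources used here.

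Log2(normalized count + 1) was fitted with limma 3.58.1 (lmFit, eBayes with trend) in R 4.3.3 for genes with a mean of at least 10, 15314 in neurons and 15380 in astrocytes, with Benjamini-Hochberg adjustment over all of them. A log2 difference on this scale understates the change of genes at low levels. No test crossed the cultures, which were normalized separately. Beside limma, named genes were compared by a two-sided exact permutation test of mean log2 values. It permuted all libraries of a comparison freely, without regard to their numbers. The fits were tested on simulated data. Depth was estimated as the total divided by the step at which most values under 4.5 were whole multiples within 0.1 (78.7% to 93.2% of them in neurons and 60.7% to 93.4% in astrocytes), so whole reads were not recovered and no count test was run. Unused sample columns numbered 0.

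The members, classes and lists were chosen with earlier results of these data known. Genes were named when they passed an unadjusted p under 0.05, did not overlap between groups, had 1 of the 2 highest normalized counts of a class (no length was used), 1 of the 3 largest differences by number in each direction after adjustment or by percentile between cultures, or lay next to the minimum. Alternatives were other pseudocounts (0.5 and 5), minimum means (none and 50), scalings, the VST values, variance models, blocks by replicate number and leaving out each library. After each group's mean was removed, neuron AM-Veh and AM-Allo libraries with the same number correlated over genes at 0.229 to 0.296. Those that share only the first part correlated at 0.185 to 0.236, and those with different first parts at −0.319 to −0.15. The first part thus groups the libraries, while the ranges for the whole number and the first part overlap. Some genes that enter the fits and counts are not reported here by name.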

Additional observations from a re-analysis of the deposited data

Results flagged for a closer look

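In groups of 4 neuron libraries, a library set apart from its group by Dixon's criterion was found in 2 of 86 groups examined, where chance flags about 1 in 20. Both were the AM-Allo library 2-1. It had 3363 normalized counts of Kcna2, against 3782 to 3866 in the other AM-Allo libraries. For Kcnq3 it had 212.6, against 178 to 180.4 in the others, which reaches into the AM-Veh range of 201 to 239.

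For 2 associated genes, every AM-Allo library lay on one side of the AM-Veh libraries in neurons and on the other side in astrocytes. Libraries of the groups did not overlap for 3.95% of all genes in neurons and 12.5% in astrocytes, where 3 libraries faced 3. Cntn2 had a log2 difference of 0.31 in neurons and −0.21 in astrocytes, and Adam22 had 0.11 and −0.19. In astrocytes Cntn2 lay near the minimum mean of 10. It was at 13.8, 15.6 and 13.8 in AM-Veh and 12.9, 10.8 and 13.2 in AM-Allo. The astrocyte intervals were −0.92 to 0.49 for Cntn2 and −0.47 to 0.09 for Adam22. The difference between the cultures was not tested, and the astrocyte values did not pass an unadjusted p under 0.05.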

How the results depend on the processing

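With the deposited VST values, 13 potassium channel genes passed an unadjusted p under 0.05 in neurons (7 higher and 6 lower) and 2 after adjustment. The difference by library number is absent from those values, and the fit has no term for it. The same values gave 8 associated genes, 4 higher and 4 lower, beside 14.4% of all genes, and 1 after adjustment, Dpp6. For libraries numbered 1 against 2 they give no value. With a replicate block by the whole number or by its first part, 10 passed unadjusted and 2 after adjustment, Kcnn1 and Kcnf1. The block changed no other adjusted call. The astrocyte numbers do not pair the samples (correlations of 0.0241, −0.00698 and 0.0117), and a replicate block there gave 1 call, as without it. At a minimum mean of 50, 0 astrocyte genes passed, because Kcnv1 is no longer tested. Between libraries numbered 1 and 2, 8 genes passed after adjustment without the variance trend and 7 in AM-Veh libraries alone. When each library was left out, calls ranged from 5 to 9 in neurons and from 1 to 4 in astrocytes (0 to 0 after adjustment in each), from 21 to 28 by number (9 to 14 after adjustment), and for the associated genes from 3 to 7 in neurons and 0 to 2 in astrocytes, with 2 without AM-Allo 1.

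Kcnn1, Kcnf1, Kcnj9 and Kcnv1 kept an unadjusted p under 0.05 under every alternative in which they were tested. Kcng1 lost it in 3, Kcnip4 in 2, Kcnq3 in 1 and Kcnj11 and Kcnk9 in 5 each, all of them with a library left out. Of the associated genes, Adam22 lost it in 10, both blocks included, Dpp6 in 5 and Hcn3 in 2, while Ank3, Cntn2 and Hcn4 kept it. By library number, Kcne5 and Kcnip1 kept an adjusted p under 0.05, Kcns3 lost it in AM-Veh libraries alone, Kcng3 in 6, and Kcnip2 and Kcnk1 in 8 alternatives each. No result changed its direction. Genes near the minimum rest on about 10 reads, which limits what can be seen for them.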
